A study of Mus musculus with 9 samples.

Results

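The 30 genes of glycolysis and the pentose phosphate pathway described here cover sugar entry, the glycolytic enzymes and their isozymes, lactate formation and export, the enzymes of fructose 2,6-bisphosphate, both arms of the pentose phosphate pathway and the regulator Hif1a. They were chosen by gene symbol from a fixed list of names, drawn up with earlier results of these data known. All 30 were among the 17132 genes of the count table. All 30 also passed the filter on low counts, which kept 12828 genes. The samples were pancreas of wild-type C57BL/6 mice of 22-25 g, 3 mice in each of 3 groups, with 1 mRNA library per mouse. QYD mice received hourly intraperitoneal caerulein for 7 injections, lipopolysaccharide (LPS) with the last one, and Qingyi Decoction at 0 and 8 h. Model mice received the same caerulein and LPS, with saline in place of the decoction. Control mice received saline for both the injections and the decoction. Caerulein is a peptide that overstimulates the enzyme-secreting acinar cells, and LPS is a bacterial cell wall component. The labels put the caerulein dose at 50 mg/kg, and tissue was collected 24 h after the first injection. What the decoction contained and how it was given are not stated in the sources used here, and the decoction group is spelled QYD in the titles and QTD in the treatment labels.

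Glycolysis splits glucose into pyruvate, with ATP as the gain, and lactate dehydrogenase turns pyruvate into lactate, which monocarboxylate transporters carry across the cell membrane. The pentose phosphate pathway branches off at glucose 6-phosphate: its oxidative arm makes NADPH, and its non-oxidative arm exchanges sugars with glycolysis. Many of these genes are textbook targets of hypoxia-inducible factor 1, and activated immune cells are known for high glycolysis, while acinar cells are known mainly for oxidative metabolism.

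Each library held between 19112923 and 20212744 estimated counts, but what those counts were spent on differed. A list of 14 acinar genes, most of them digestive enzymes, took 35.0% to 38.3% of all counts in QYD libraries, 35.6% to 40.1% in Model libraries and 61.9% to 63.8% in Control libraries, so the pancreas label was met in all 9. The 30 pathway genes took 0.241% to 0.301% of counts in QYD, 0.253% to 0.342% in Model and 0.0308% to 0.0417% in Control. Levels below are therefore given as CPM, counts scaled to a common library size, after TMM scaling, which sets the typical gene equal between libraries. Every direction is relative to that typical gene. Scaling by plain library totals moved the median of all genes up by 2.15 log2 units for Model versus Control and by 2.03 for QYD versus Control, and with it all 30 pathway genes passed as higher against Control. In bulk tissue, fewer cells of a type and less RNA per cell cannot be told apart. Nothing in the labels says more of the replicates than that they carry separate numbers, and the p-values measure the spread between these libraries.

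On the TMM scale most of the pathway rose with caerulein plus LPS. In Model versus Control, 21 of 30 genes rose, against 21.3% of all tested genes, and 2 fell, against 21.3% of all tested genes (adjusted p under 0.05, edgeR quasi-likelihood, Benjamini-Hochberg over all 12828 genes). In QYD versus Control, 19 rose, against 20.5% of all tested genes, and 3 fell, against 20.3%. The counts by role below stand against these same shares. The median log2 fold change of the 30 genes was 0.83 in Model versus Control and 0.74 in QYD versus Control, where the medians over all tested genes were 0.04 and 0.06. These comparisons share the 3 Control libraries, and the 30 genes were chosen with earlier results of these data known. The genes that fell were Pfkm and Pgls in both, and Hk2 in QYD versus Control. These 3 stood higher, not lower, in the same comparisons when plain library totals were used.

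**Figure D1:**
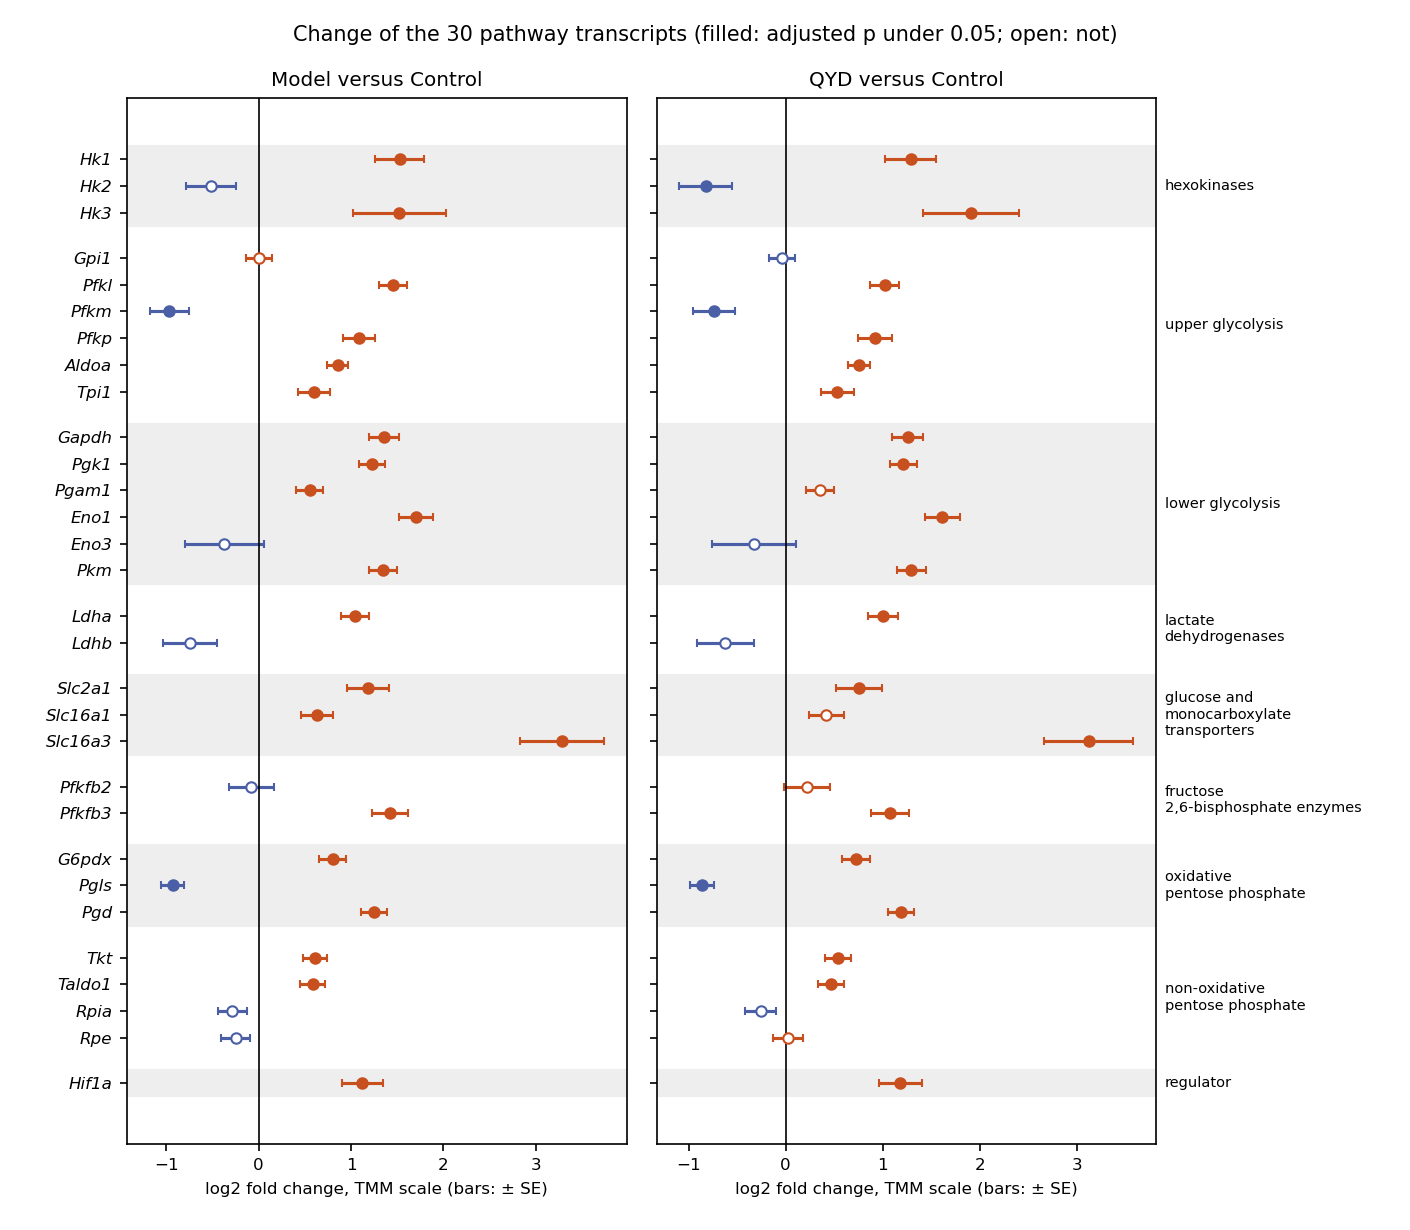
Log2 fold change on the TMM scale (horizontal axis, bars are ± SE) of each of the 30 genes, grouped by role, in Model versus Control (left) and QYD versus Control (right), 3 mice per group; filled points passed an adjusted p of 0.05 and open points did not. Slc16a3 lay farthest to the right in both panels, at 3.28 and 3.13, and Pfkm and Pgls were filled left of 0 in both, although on library totals they lay right of 0.

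Set per kilobase of transcript (FPKM, comparable between genes of a library), Gapdh and Aldoa were the highest and second highest of the 30 genes in all 9 libraries. Gapdh had 659, 550 and 490 FPKM in QYD, 711, 710 and 541 FPKM in Model and 48.0, 50.5 and 76.2 FPKM in Control. The next ranks differed between groups. Pgls was the third in every Control library but ranked between 8 and 10 in the QYD and Model libraries, and Eno1 ranked 3 or 4 in the QYD and Model libraries but between 8 and 10 in the Control libraries. Slc16a3 was the lowest of the 30 genes in all 3 Control libraries, at 0.02, 0.02 and 0.19 FPKM. In QYD it had 3.36, 2.52 and 2.90 FPKM and in Model 3.83, 4.00 and 2.70 FPKM, between ranks 21 and 25, while Eno3, Hk3, Hk2 or Pfkm filled the lowest ranks.

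The transporters stand at both ends of the pathway, and all 3 rose in Model versus Control. Slc16a3, which encodes MCT4, a lactate exporter of glycolytic cells (chromosome 11, 120948484 to 120959000, GRCm38.p6), had 4.24, 3.68 and 4.77 CPM in QYD, 4.89, 5.15 and 4.10 CPM in Model and 0.140, 0.127 and 1.14 CPM in Control. It was low in every Control library, and neither treated group overlapped Control. The 3 Control libraries held 11 estimated counts in all, 9 of them in Control 45. The log2 fold change was 3.28 ± 0.45 (SE) in Model versus Control (adjusted p = 0.000263, edgeR quasi-likelihood, Benjamini-Hochberg) and 3.13 ± 0.46 in QYD versus Control (adjusted p = 0.000433). Summed over libraries, Slc16a3 was 9.87 times as high in Model as in Control, with a counting interval of 5.47 to 19.9, and 8.76 times as high in QYD as in Control, with 4.84 to 17.7. Without Control 45 the log2 fold changes were 5.10 in Model versus Control and 4.94 in QYD versus Control.

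Slc2a1, the glucose transporter GLUT1 (chromosome 4, 119108745 to 119137330), had 9.18, 9.01 and 11.7 CPM in QYD, 15.9, 12.6 and 11.6 CPM in Model and 4.33, 4.96 and 8.26 CPM in Control. Every treated library stood above every Control library, and QYD and Model overlapped. It rose by 1.18 ± 0.23 log2 units in Model (adjusted p = 0.00197, edgeR quasi-likelihood, Benjamini-Hochberg) and by 0.76 ± 0.23 in QYD (adjusted p = 0.0233). The QYD call was lost without Control 43 (adjusted p = 0.0851), Control 44 (0.0891) or QYD 68 (0.0727), in the same edgeR fit. Slc16a1, the lactate transporter MCT1, had 7.13, 6.30 and 6.11 CPM in QYD, 8.01, 7.83 and 6.76 CPM in Model and 6.01, 3.82 and 4.83 CPM in Control. It rose in Model by 0.63 ± 0.18 (adjusted p = 0.0144, edgeR quasi-likelihood, Benjamini-Hochberg), a call lost without Control 44 (0.0505), and had 0.42 ± 0.18 in QYD versus Control (adjusted p = 0.0805), which passed without Control 43 (0.0288).

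The promoters of Slc16a3 and Ldha, which rose, and of Pfkm and Pgls, which fell on the TMM scale but not on library totals, are shown because all 4 hold the core of the hypoxia response element. Each is the 250 bases before a start of the gene in the RefSeq promoter table of GRCm38.p6. Ldha and Pfkm had more than 1 start there, and the one whose window, with 50 bases after the start, held the most matches was taken. For Slc16a3 and Ldha the start used lies inside the gene span printed in this report. Sequences run 5′ to 3′ on the gene's own strand, here the plus strand for all 4, and capitals mark ACGTG or GCGTG on either strand.
Slc16a3 (chr11:120948817-120949066): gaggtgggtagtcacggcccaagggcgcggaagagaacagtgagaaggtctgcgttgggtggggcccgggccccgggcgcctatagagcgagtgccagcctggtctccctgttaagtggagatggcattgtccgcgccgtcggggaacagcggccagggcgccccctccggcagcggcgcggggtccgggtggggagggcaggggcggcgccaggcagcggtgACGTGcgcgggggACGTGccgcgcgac
Ldha (chr7:46845554-46845803): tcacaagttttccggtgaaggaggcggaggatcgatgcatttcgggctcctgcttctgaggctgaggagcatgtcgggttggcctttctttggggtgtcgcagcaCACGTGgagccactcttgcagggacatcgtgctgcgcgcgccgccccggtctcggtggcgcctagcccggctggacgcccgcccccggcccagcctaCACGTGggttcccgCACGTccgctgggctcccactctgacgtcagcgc
Pfkm (chr15:98092339-98092588): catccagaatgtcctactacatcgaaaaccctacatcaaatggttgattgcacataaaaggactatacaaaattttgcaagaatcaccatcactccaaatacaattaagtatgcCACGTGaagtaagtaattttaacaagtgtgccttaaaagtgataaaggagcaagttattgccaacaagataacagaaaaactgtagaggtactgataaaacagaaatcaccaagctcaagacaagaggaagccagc
Pgls (chr8:71591934-71592183): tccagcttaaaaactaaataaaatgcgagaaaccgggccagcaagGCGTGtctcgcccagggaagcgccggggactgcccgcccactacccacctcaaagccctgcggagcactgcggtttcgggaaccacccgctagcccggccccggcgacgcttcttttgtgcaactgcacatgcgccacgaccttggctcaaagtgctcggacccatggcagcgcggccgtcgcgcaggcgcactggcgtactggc
Slc16a3 held 2 matches, 27 and 14 bases before the start used. Ldha held 5, some of which overlap because the palindrome CACGTG matches on both strands. Pfkm held 1 such palindrome, counted as 2 matches, and Pgls held 1 match.

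The search over all genes took every start of a gene in the RefSeq promoter table, with 250 bases before and 50 after it, so its windows are longer than the stretches printed above. All 30 members had an entry, and 27 of 30, which is 90%, held ACGTG or GCGTG on either strand in at least 1 window. The same letters were in 46.7% of the 27025 genes of the table, and in 66.5% of the 10228 genes of the table that passed the expression filter here. The matches did not separate the calls: 20 of 21 genes that rose in Model versus Control held the core, as did both that fell on the TMM scale and 5 of 7 that did not pass. The 3 genes with no match were Gpi1, Tpi1 and Rpe. The antioxidant response core TGACNNNGC, on either strand of the same windows, was in 5 of 30 members, or 16.7%, against 14.0% of all genes of the table and 16.9% of those that passed the expression filter. A match of letters is a description of these windows and says nothing of what binds there.

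The hexokinases trap glucose as glucose 6-phosphate, and 2 of their 3 genes rose in both comparisons with Control. Hk1, the widely expressed form (chromosome 10, 62268855 to 62379920), had 8.21, 6.90 and 7.56 CPM in QYD, 9.21, 10.2 and 7.28 CPM in Model and 1.54, 3.82 and 3.81 CPM in Control, with no overlap between either treated group and Control. It rose by 1.53 ± 0.26 log2 units in Model (adjusted p = 0.000914, edgeR quasi-likelihood, Benjamini-Hochberg) and by 1.29 ± 0.26 in QYD (adjusted p = 0.00289). Hk2, the insulin-responsive form of muscle and fat (chromosome 6, 82725025 to 82774454), had 3.13, 3.68 and 3.69 CPM in QYD, 3.03, 4.32 and 5.69 CPM in Model and 7.27, 4.07 and 7.24 CPM in Control. QYD lay below Control without overlap, and Model overlapped Control. Hk2 fell by 0.82 ± 0.27 log2 units in QYD versus Control on the TMM scale (adjusted p = 0.0327, edgeR quasi-likelihood, Benjamini-Hochberg), against a difference of 1.202 in the other direction on library totals. That call was lost without Control 43 (adjusted p = 0.109), Control 45 (0.115), QYD 65 (0.0962), QYD 66 (0.0641) or QYD 68 (0.0585) in the same edgeR fit. In Model versus Control it had -0.51 ± 0.27 (adjusted p = 0.149) and passed without Control 44 (0.0475).

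Hk3, a hexokinase best known from blood cells (chromosome 13, 55005985 to 55021475), had 3.13, 2.88 and 2.87 CPM in QYD, 1.89, 3.27 and 1.62 CPM in Model and 0.419, 0.255 and 1.65 CPM in Control. Model overlapped Control through Control 45, and QYD did not. The log2 fold change was 1.91 ± 0.50 in QYD versus Control (adjusted p = 0.0107, edgeR quasi-likelihood, Benjamini-Hochberg) and 1.53 ± 0.51 in Model versus Control (adjusted p = 0.0314). The Model call was lost without Control 43 (0.109), Control 44 (0.117) or Model 57 (0.0868), and without Control 45 the differences were 2.75 in Model and 3.13 in QYD. Control held 18 estimated counts of Hk3 in all. Neutrophil markers moved in the same direction. In Model versus Control 14 of 15 were higher, against 21.3% of all tested genes, and in QYD versus Control 13 of 15, against 20.5%. Their summed level was 188 to 350 CPM in QYD, 165 to 226 CPM in Model and 10.95 to 52.2 CPM in Control, with the highest Control value in Control 45, and none of the 15 was at 0 throughout a group. Their part in the result for Hk3 and for the other genes that rose was not tested.

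In upper glycolysis, 4 of 6 genes rose and 1 fell in both comparisons with Control, and the direction of the fall rests on the TMM scale. Over all tested genes, 21.3% rose and 21.3% fell in Model versus Control, and 20.5% rose and 20.3% fell in QYD versus Control. The phosphofructokinases, whose step commits sugar to glycolysis, split by isozyme. Pfkl, the liver-type form (chromosome 10, 77986947 to 78009807), had 14.0, 12.3 and 13.2 CPM in QYD, 20.1, 17.3 and 16.0 CPM in Model and 5.59, 7.26 and 6.61 CPM in Control. Model was highest and Control lowest with no overlap between any 2 groups. Pfkl rose by 1.46 ± 0.15 log2 units in Model (adjusted p = 4.06e-05, edgeR quasi-likelihood, Benjamini-Hochberg) and by 1.02 ± 0.15 in QYD (adjusted p = 0.000412). Pfkp, the platelet-type form, also rose, by 1.09 ± 0.17 in Model and 0.92 ± 0.17 in QYD. Pfkm, the muscle-type form (chromosome 15, 98092589 to 98132447), had 3.33, 3.72 and 2.42 CPM in QYD, 2.72, 3.13 and 2.24 CPM in Model and 5.03, 5.73 and 5.08 CPM in Control, with every treated library below every Control library. It fell by 0.97 ± 0.21 log2 units in Model (adjusted p = 0.00417, edgeR quasi-likelihood, Benjamini-Hochberg) and by 0.74 ± 0.21 in QYD (adjusted p = 0.0172) on the TMM scale, against 1.19 and 1.30 in the other direction on library totals. The QYD call was lost without Control 44 (adjusted p = 0.0587) or QYD 68 (0.0548). Markers of skeletal muscle summed to 0.731 to 1.04 CPM in QYD, 0.544 to 0.655 CPM in Model and 1.66 to 1.96 CPM in Control over 10 genes, none of which passed the expression filter. Myh4 was at 0 in QYD and Model, and Pvalb in QYD and Control.

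Aldoa, the aldolase that splits fructose 1,6-bisphosphate, had 206, 195 and 192 CPM in QYD, 215, 213 and 208 CPM in Model and 107, 119 and 124 CPM in Control. The replicates lay close together and far above Control, with a rise of 0.86 ± 0.11 in Model and 0.76 ± 0.11 in QYD. Tpi1, which interconverts the triose phosphates, rose by 0.60 ± 0.17 in Model (adjusted p = 0.0162, edgeR quasi-likelihood, Benjamini-Hochberg) and 0.53 ± 0.17 in QYD (adjusted p = 0.0288). The calls for Tpi1 were lost without Control 43 or Model 56 in Model versus Control (adjusted p = 0.0611 and 0.0601), and without Control 43, Control 45 or QYD 68 in QYD versus Control (0.0942, 0.0613 and 0.116). Gpi1, the isomerase at the branch point with the pentose phosphate pathway, had 102, 91.7 and 99.0 CPM in QYD, 95.3, 112 and 93.8 CPM in Model and 85.2, 116 and 98.2 CPM in Control. Its groups overlapped throughout, with fold changes of 1.00 (95% interval 0.811 to 1.24) in Model and 0.975 (0.789 to 1.2) in QYD.

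Fructose 2,6-bisphosphate is the strongest known activator of phosphofructokinase, and the enzymes Pfkfb2 and Pfkfb3 make and break it. Pfkfb3, the inducible form with the highest kinase activity (chromosome 2, 11471430 to 11554071), had 19.6, 20.3 and 24.8 CPM in QYD, 32.4, 27.1 and 22.4 CPM in Model and 11.9, 7.64 and 11.2 CPM in Control, so that neither treated group overlapped Control. It rose by 1.42 ± 0.19 log2 units in Model (adjusted p = 0.000248, edgeR quasi-likelihood, Benjamini-Hochberg) and by 1.08 ± 0.19 in QYD (adjusted p = 0.00146). Pfkfb2, a form known from heart, did not pass in either comparison, with -0.08 ± 0.24 in Model and 0.22 ± 0.24 in QYD.

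Lower glycolysis, where ATP is made, held the highest levels. Its 6 genes summed to 833 to 866 CPM in QYD, 838 to 948 CPM in Model and 314 to 448 CPM in Control. In Model versus Control 5 of 6 rose, and in QYD versus Control 4 of 6. Eno1, the widely expressed enolase (chromosome 4, 150236708 to 150248879), had 121, 109 and 134 CPM in QYD, 138, 128 and 121 CPM in Model and 31.0, 35.4 and 52.0 CPM in Control. All treated libraries stood above Control, and the change was 3.27-fold (95% interval 2.47 to 4.32) in Model and 3.06-fold (2.32 to 4.05) in QYD. In log2 units Eno1 rose by 1.71 ± 0.18 in Model (adjusted p = 5.64e-05, edgeR quasi-likelihood, Benjamini-Hochberg) and by 1.62 ± 0.18 in QYD (adjusted p = 9.7e-05). Gapdh, the glyceraldehyde 3-phosphate dehydrogenase often used as a housekeeping control, had 451, 438 and 436 CPM in QYD, 483, 497 and 440 CPM in Model and 163, 158 and 233 CPM in Control. It was thus not level across these groups, with 1.36 ± 0.16 log2 units in Model and 1.26 ± 0.16 in QYD, and the treated groups did not overlap Control.

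Pkm, the pyruvate kinase of most non-liver tissues, rose by 1.35 ± 0.15 in Model and 1.30 ± 0.15 in QYD, and Pgk1, the first ATP-making enzyme of the pathway, by 1.22 ± 0.14 and 1.21 ± 0.14. Pgam1, the phosphoglycerate mutase, rose by 0.55 ± 0.14 in Model (adjusted p = 0.00965, edgeR quasi-likelihood, Benjamini-Hochberg). In QYD versus Control it had 0.35 ± 0.14 (adjusted p = 0.0693), which passed without Control 44 (0.0464). Eno3, the muscle enolase, had 1.49, 1.34 and 0.894 CPM in QYD, 0.915, 1.101 and 1.62 CPM in Model and 0.559, 1.91 and 2.16 CPM in Control. Its groups overlapped, with -0.37 ± 0.43 in Model and -0.32 ± 0.43 in QYD, and it did not pass. Several of these transcripts have near-identical copies elsewhere in the genome. Of the 50-base stretches of the annotated transcripts, 17.5% were found in no other gene's transcripts for Gapdh, 27.8% for Eno1, 32.0% for Pgk1, 58.5% for Pgam1 and 65.6% for Pkm. How the estimated counts divide reads between such copies makes the levels of these 5 genes uncertain. Eno1b, the closest copy of Eno1, held at most 2.9 estimated counts in any library, and Gapdh-ps15, a copy of Gapdh, at most 6.7. Gm7336, not Gapdh-ps15, shared the most stretches with Gapdh. These low estimates come out of the same division of reads, so they do not settle the levels of Eno1 and Gapdh.

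Ldha and Ldhb encode the subunits of lactate dehydrogenase, Ldha being the form of glycolytic tissue and Ldhb that of oxidative tissue. Ldha (chromosome 7, 46842274 to 46855627) had 104, 112 and 132 CPM in QYD, 136, 112 and 111 CPM in Model and 48.5, 60.2 and 65.1 CPM in Control, with no overlap with Control. It rose by 1.05 ± 0.15 log2 units in Model (adjusted p = 0.000383, edgeR quasi-likelihood, Benjamini-Hochberg) and by 1.00 ± 0.15 in QYD (adjusted p = 0.000578). Ldhb had 2.43, 2.08 and 2.31 CPM in QYD, 1.202, 2.74 and 2.35 CPM in Model and 3.77, 3.44 and 3.30 CPM in Control. Its treated libraries all lay below Control, but the difference did not pass, at -0.74 ± 0.29 in Model (adjusted p = 0.0621, edgeR quasi-likelihood, Benjamini-Hochberg) and -0.62 ± 0.29 in QYD (adjusted p = 0.112). It passed in Model without Model 57 (0.0268) and in QYD without Model 56 (0.0323).

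In the oxidative arm of the pentose phosphate pathway, the dehydrogenases that make NADPH and the lactonase between them moved apart. G6pdx, the entry enzyme, had 16.4, 17.0 and 18.2 CPM in QYD, 17.9, 20.8 and 15.6 CPM in Model and 9.08, 10.3 and 11.7 CPM in Control. Pgd, the second NADPH-making enzyme (chromosome 4, 149149991 to 149166705), had 28.0, 25.7 and 27.6 CPM in QYD, 31.4, 29.8 and 23.5 CPM in Model and 10.9, 12.2 and 12.5 CPM in Control. Both were higher in every treated library than in every Control library. G6pdx rose by 0.80 ± 0.15 log2 units in Model and by 0.73 ± 0.15 in QYD, and Pgd by 1.25 ± 0.14 and 1.19 ± 0.14. Pgls, the lactonase (chromosome 8, 71592184 to 71596267), had 24.7, 29.7 and 28.2 CPM in QYD, 25.4, 25.6 and 27.8 CPM in Model and 52.7, 53.8 and 43.9 CPM in Control. The treated libraries all lay far below Control on this scale, and the replicates lay close together. Pgls fell by 0.93 ± 0.12 log2 units in Model (adjusted p = 0.000216, edgeR quasi-likelihood, Benjamini-Hochberg) and by 0.87 ± 0.12 in QYD (adjusted p = 0.000376) on the TMM scale, against 1.22 and 1.16 in the other direction on library totals. The 3 genes together summed to 69.1 to 73.9 CPM in QYD, 67.0 to 76.2 CPM in Model and 67.99 to 76.4 CPM in Control, overlapping ranges that hide these opposite differences.

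In the non-oxidative arm, 2 of 4 genes rose in both comparisons with Control. Tkt, transketolase, had 56.8, 51.4 and 62.3 CPM in QYD, 66.3, 58.4 and 54.0 CPM in Model and 35.2, 43.02 and 38.9 CPM in Control. Taldo1, transaldolase, had 59.1, 58.7 and 67.4 CPM in QYD, 78.1, 62.4 and 60.3 CPM in Model and 42.3, 48.9 and 42.6 CPM in Control. Treated and Control libraries did not overlap for either gene. Tkt rose by 0.61 ± 0.13 in Model and 0.54 ± 0.13 in QYD, and Taldo1 by 0.59 ± 0.14 in Model (adjusted p = 0.00531, edgeR quasi-likelihood, Benjamini-Hochberg) and 0.47 ± 0.14 in QYD (adjusted p = 0.0176). The Taldo1 call in QYD was lost without Control 43 (0.0513), Control 45 (0.0519) or QYD 68 (0.0625). Rpia and Rpe, which interconvert the pentose phosphates, did not pass in either comparison. Rpia had -0.28 ± 0.16 in Model and -0.26 ± 0.16 in QYD, and Rpe had -0.25 ± 0.16 in Model and 0.03 ± 0.15 in QYD.

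Hif1a encodes the oxygen-regulated subunit of hypoxia-inducible factor 1, which is controlled largely through the stability of the protein, so its transcript is only part of its regulation. Hif1a (chromosome 12, 73901324 to 73947554) had 55.6, 63.7 and 89.6 CPM in QYD, 81.8, 61.0 and 57.4 CPM in Model and 32.8, 23.4 and 35.8 CPM in Control, and the treated groups did not overlap Control. It rose by 1.12 ± 0.22 log2 units in Model (adjusted p = 0.00212, edgeR quasi-likelihood, Benjamini-Hochberg) and by 1.18 ± 0.22 in QYD (adjusted p = 0.0018). A list of other genes of the hypoxia-inducible factor pathway mixes targets of the factor with its regulators, so its counts do not describe the targets alone. Of 23 tested, 7 were higher and 7 lower in Model versus Control, with a median log2 fold change of 0.08. Over all tested genes, 21.3% were higher and 21.3% lower. In QYD versus Control 4 were higher and 6 lower, against 20.5% and 20.3% of all tested genes, with a median of 0.12. Car9, a carbonic anhydrase, had 43.4 ± 6.56 CPM in QYD, 32.8 ± 4.13 CPM in Model and 5.42 ± 4.34 CPM in Control (SD, n = 3 each), and rose by 2.58 ± 0.37 log2 units in Model. Bnip3, a mitophagy receptor, had 22.7 ± 3.03 CPM in QYD, 20.8 ± 0.809 CPM in Model and 54.3 ± 17.2 CPM in Control, and stood at -1.39 ± 0.20 in Model on the TMM scale. Egln2, a prolyl hydroxylase that marks the factor for breakdown, stood at -0.92 ± 0.14 in Model, and Mxi1, an antagonist of Myc, at -0.84 ± 0.12, also on the TMM scale.

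**Figure D2:**
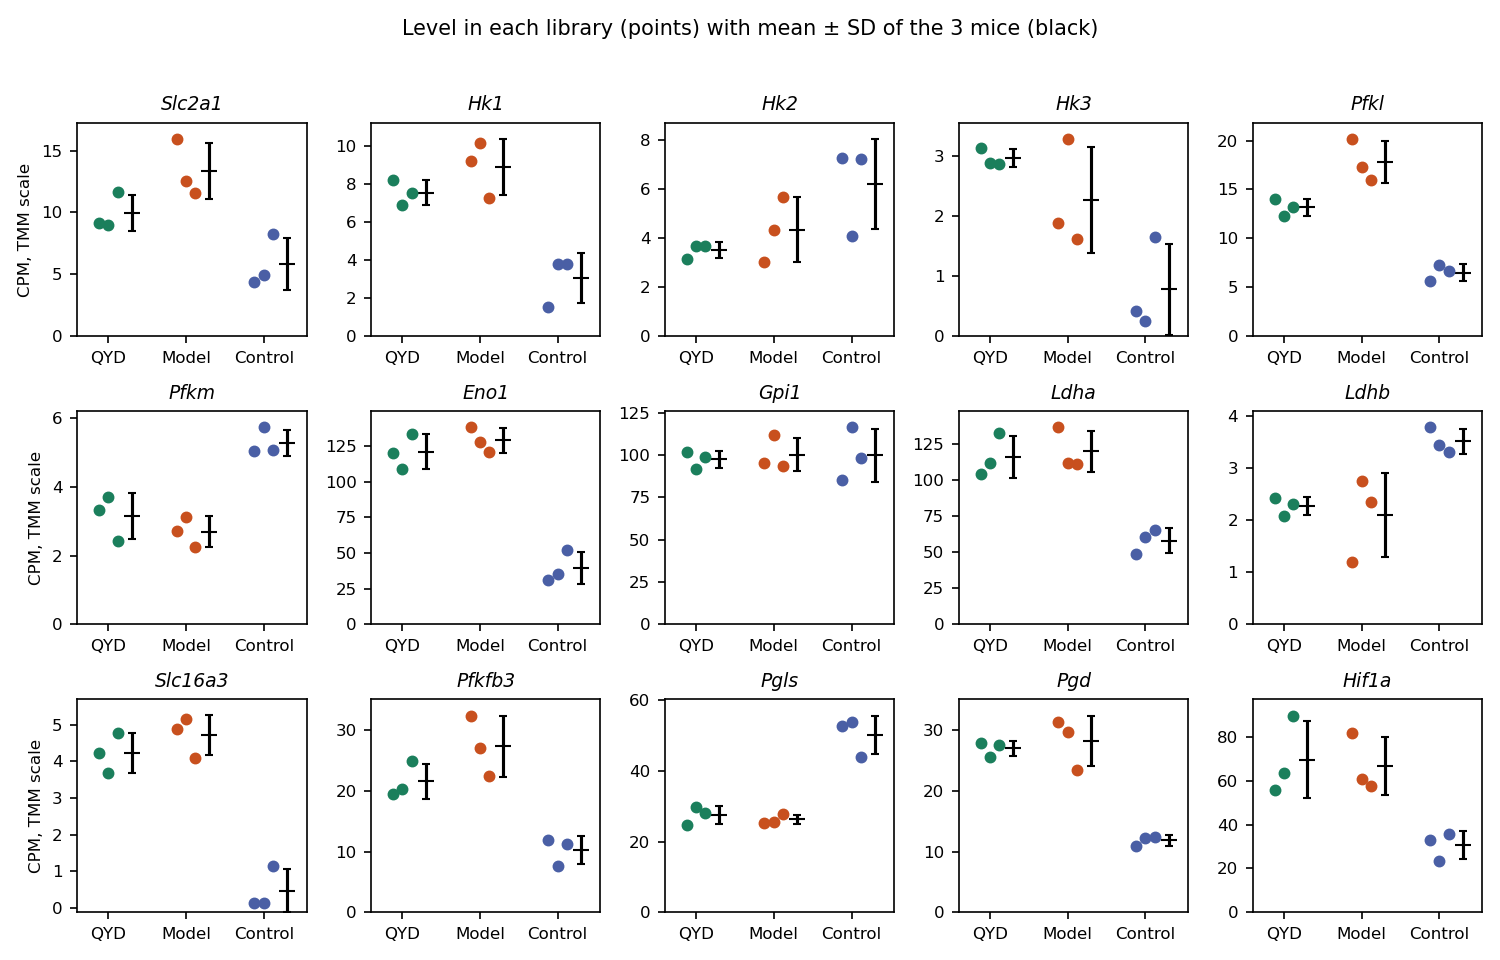
Levels in CPM on the TMM scale (vertical axis) of 15 of the 30 genes in each library (points; QYD, Model and Control from left to right), with mean ± SD of 3 mice in black. For Slc16a3 all 3 Control points lay at or below 1.14 CPM and all treated points at or above 3.68 CPM, while Pgls ran the other way on this scale, with Control at or above 43.9 CPM and treated libraries at or below 29.7 CPM.

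Ratios between genes of the same library do not depend on how libraries are scaled, so they were set beside the levels above. The 6 libraries with caerulein plus LPS, QYD and Model together, were compared with the 3 Control libraries for 10 pairs, with a 2-sided exact permutation test whose smallest possible p is 0.0119 and Benjamini-Hochberg adjustment over the 10 pairs. In 7 pairs the difference passed. Ldha over Ldhb was 1.77 log2 units higher with caerulein plus LPS, at 5.41, 5.74 and 5.83 in QYD, 6.81, 5.35 and 5.55 in Model and 3.66, 4.11 and 4.27 in Control (exact permutation test, adjusted p = 0.0198). Slc16a3 over Slc16a1 was 3.09 higher, at -0.75, -0.77 and -0.36 in QYD, -0.71, -0.60 and -0.72 in Model and -4.86, -4.35 and -2.02 in Control. The treated values lay within a narrow span, and the Control values were both lower and more spread. Pfkm over Pfkl differed by -2.11, at -2.07, -1.72 and -2.44 in QYD, -2.88, -2.47 and -2.83 in Model and -0.15, -0.34 and -0.37 in Control. Hk2 over Hk1 differed by -2.15, Eno3 over Eno1 by -1.90 and Pgd over Tkt by 0.64, and none of these 6 pairs overlapped between treated and Control libraries. The adjusted p was 0.0198 for each of the 6 (exact permutation test), and 0.034 for Pfkfb3 over Pfkfb2, which was 1.17 higher. The Pfkfb3 over Pfkfb2 call was lost without Model 59, QYD 65 or QYD 66 (adjusted p = 0.051 each, exact permutation test) or without QYD 68 (0.0765). Hk3 over Hk1, Pfkp over Pfkl and G6pdx over Taldo1 did not pass (adjusted p = 0.44, 0.185 and 0.179, exact permutation test). With any 1 Control library left out no pair passed, with adjusted p values of 0.051 upward (exact permutation test). The smallest unadjusted p that 6 against 2 libraries allow is 0.0357. Between single groups of 3 the smallest possible p is 0.1, so no pair could pass there.

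**Figure D3:**
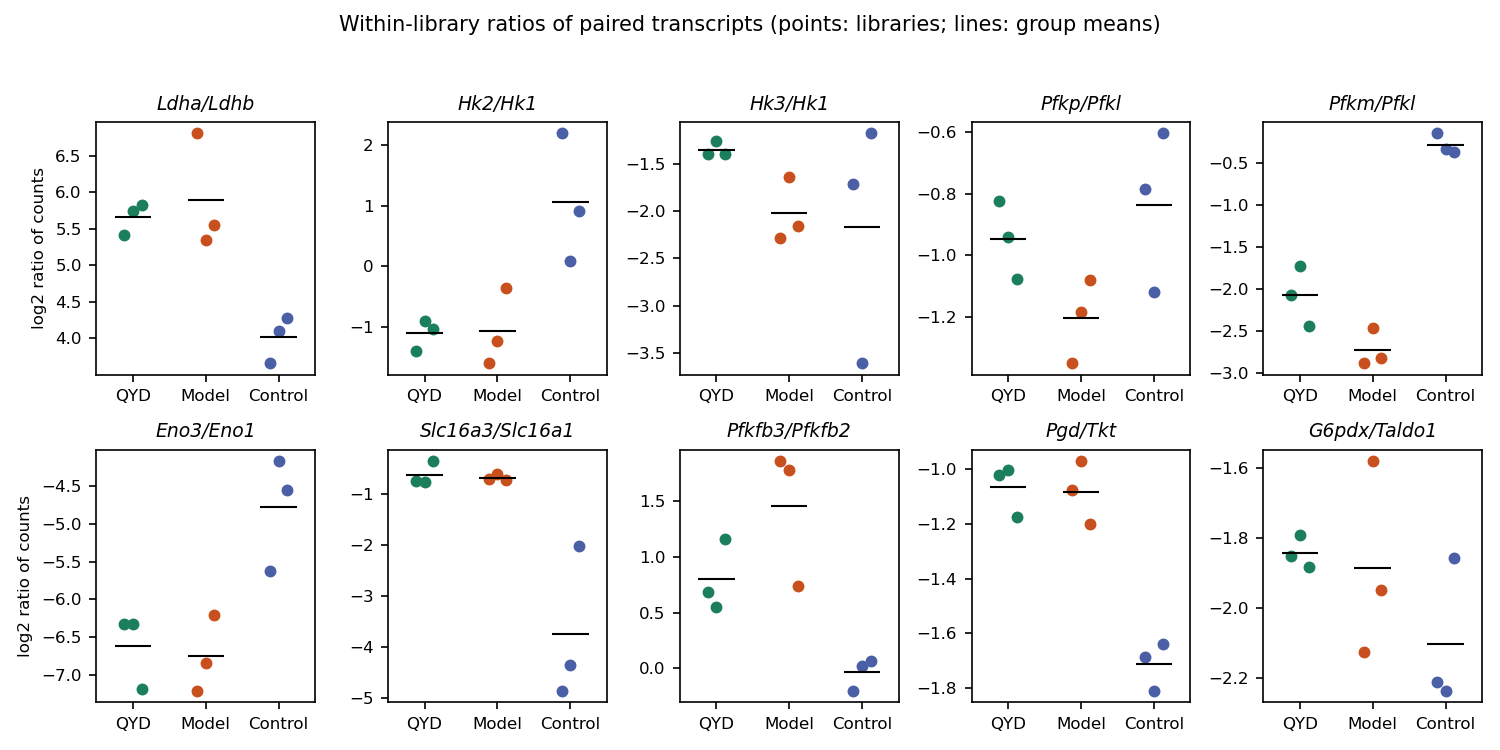
Log2 ratio of estimated counts of 2 genes in the same library (vertical axis) for the 10 pairs, with a point per library of QYD, Model and Control. Ldha over Ldhb lay at or above 5.35 in all 6 treated libraries and at or below 4.27 in Control, and Pfkm over Pfkl at or below -1.72 in treated libraries and at or above -0.37 in Control.

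Isozymes were also expressed as shares of a family's summed FPKM, which are free of library scaling. Hk1 made up 55.2% ± 1.97 of hexokinase transcripts in QYD, 60.2% ± 5.95 in Model and 37.2% ± 17.6 in Control (SD, n = 3 each), and Hk2 made up 18.0% ± 2.18, 21.2% ± 7.54 and 52.7% ± 17.0 in the same order of groups. The Control libraries varied among themselves. Hk1 held 20.6% in Control 43, 55.6% in Control 44 and 35.3% in Control 45, so that Control 44 lay within the span of the treated libraries, 53.0% to 66.6%. Hk2 held 72.1% in Control 43, 40.3% in Control 44 and 45.7% in Control 45, all above the treated libraries. Pfkm made up 15.6% ± 3.21 of phosphofructokinase transcripts in QYD, 10.7% ± 1.46 in Model and 39.3% ± 3.18 in Control, where it was about level with Pfkl at 37.9% ± 2.68. Slc16a3 made up 55.3% ± 4.09 of the transcripts of the 2 monocarboxylate transporters in QYD, 54.0% ± 1.49 in Model and 13.0% ± 14.5 in Control, the last spread coming from 29.7% in Control 45 against 3.85% and 5.41%. Ldha held nearly all lactate dehydrogenase transcripts everywhere, at 97.5% ± 0.376 in QYD, 97.7% ± 1.01 in Model and 92.7% ± 1.53 in Control. Eno1 likewise held 98.9% ± 0.394 of enolase transcripts in QYD, 99.0% ± 0.365 in Model and 96.4% ± 1.63 in Control. The shares of Eno1 rest on a gene with few unique stretches.

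**Figure D4:**
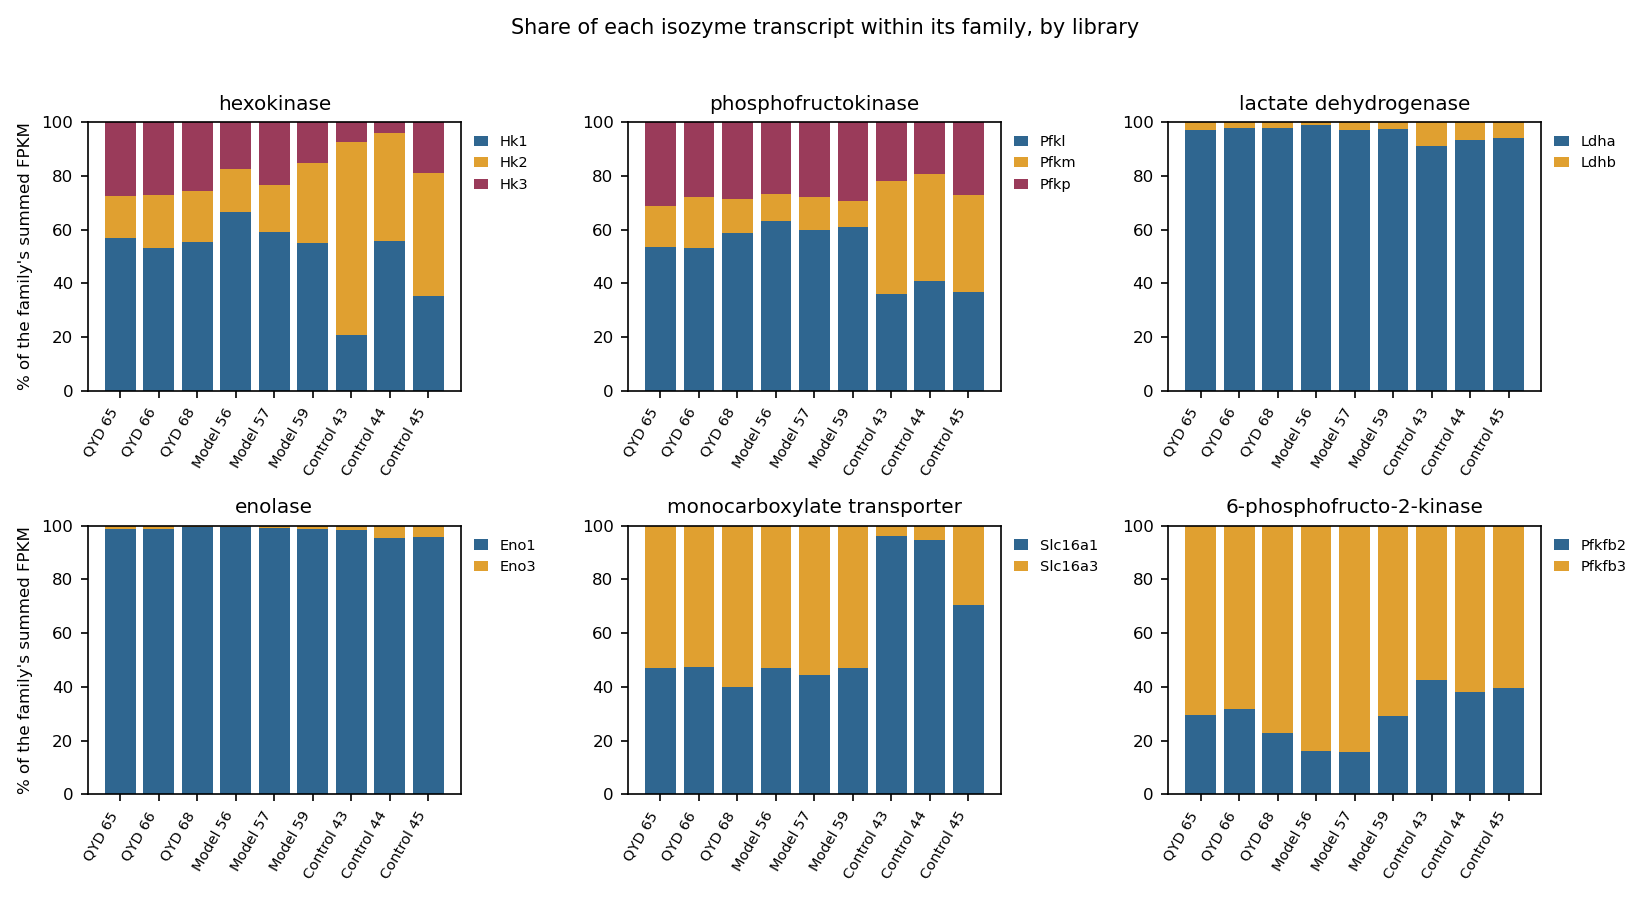
Share of each isozyme in its family's summed FPKM (vertical axis, percent) in each library, for 6 families, with QYD, Model and Control libraries from left to right. The Pfkm share lay between 9.77% and 18.9% in the 6 treated libraries and between 36.0% and 42.3% in Control.

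Other genes around the pathway, from lists chosen with earlier results of these data known, did not move in a common direction. The counts here and in the lists that follow stand against shares over all tested genes. These were 21.3% higher and 21.3% lower in Model versus Control, and 20.5% higher and 20.3% lower in QYD versus Control. Among 27 tested genes of glucose entry, storage and further glycolytic isozymes, 4 were higher and 6 lower in Model versus Control, and 4 higher and 7 lower in QYD versus Control. Pgm2, a phosphoglucomutase, rose by 1.11 ± 0.12 in Model, while Adpgk, an ADP-dependent glucokinase, and Bpgm, which makes 2,3-bisphosphoglycerate, stood at -0.77 ± 0.12 and -0.91 ± 0.15 on the TMM scale. Among 17 tested genes of gluconeogenesis, glycogen and pyruvate entry, 2 were higher and 10 lower in Model versus Control, and 2 higher and 11 lower in QYD versus Control. Mpc1, a subunit of the mitochondrial pyruvate carrier, had 22.3 ± 2.41 CPM in QYD, 17.4 ± 1.48 CPM in Model and 44.03 ± 6.20 CPM in Control (SD, n = 3 each), at -1.34 ± 0.14 in Model versus Control on the TMM scale. Fbp2, a fructose bisphosphatase, stood at -2.55 ± 0.33, Pck2, the mitochondrial PEP carboxykinase, at -0.97 ± 0.17, and Pdha1, a subunit of pyruvate dehydrogenase, at -0.82 ± 0.12, all in Model versus Control on the TMM scale.

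Among 13 tested genes of other NADPH sources and of pentose phosphate neighbours, 3 were higher and 3 lower in both comparisons with Control. Idh1, the cytosolic isocitrate dehydrogenase, had 117 ± 12.9 CPM in QYD, 103 ± 12.04 CPM in Model and 30.3 ± 9.52 CPM in Control, and rose by 1.76 ± 0.20 log2 units in Model. H6pd, the glucose 6-phosphate dehydrogenase of the endoplasmic reticulum, rose by 1.84 ± 0.23, and Me1, the cytosolic malic enzyme, by 1.52 ± 0.21. Nadk2, the mitochondrial NAD kinase, stood at -0.78 ± 0.11 on the TMM scale. Of 14 tested targets and regulators of NRF2, a factor known to drive pentose phosphate genes, 5 were higher and 3 lower in Model versus Control, and 5 higher and 4 lower in QYD versus Control. The median log2 fold change of these 14 was 0.64 in Model versus Control and 0.43 in QYD versus Control. Over all tested genes it was 0.04 and 0.06. Gsr, glutathione reductase, rose by 0.97 ± 0.14 in Model, Txnrd1, thioredoxin reductase, by 0.71 ± 0.13, and Nfe2l2, which encodes NRF2 itself, by 0.97 ± 0.21. Osgin1 stood at -0.73 ± 0.18 on the TMM scale.

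Markers of some other cells differed between these groups as well, while the sums of macrophage, stellate cell and endothelial markers overlapped between all groups. Among 7 duct markers 4 were higher and 1 lower in Model versus Control, and 3 higher and 2 lower in QYD versus Control. Their sum was 269 to 606 CPM in QYD, 389 to 735 CPM in Model and 116 to 168 CPM in Control. Of 13 macrophage and monocyte markers 5 were higher and 2 lower in Model versus Control, and 5 higher and 0 lower in QYD versus Control. Their sums were 205 to 221 CPM in QYD, 121 to 244 CPM in Model and 131 to 228 CPM in Control. All 14 acinar genes were lower in Model versus Control on the TMM scale, and 13 in QYD versus Control. Of 8 tested islet genes 6 were lower, and all 5 tested red blood cell genes were lower, in both comparisons and on the same scale. In Model versus Control, 3 of 9 stellate cell and fibroblast markers were higher and 2 lower. In the same comparison 1 of 6 endothelial markers was higher and 1 lower, and 2 of 6 adipocyte markers were lower. In QYD versus Control 2 stellate cell and fibroblast markers were higher and 1 lower, 1 endothelial marker was lower and no adipocyte marker passed. None of 6 B cell and 2 tested T cell markers passed in either comparison. B cell sums spread widely within groups, at 2.05 to 30.7 CPM in QYD, 0.862 to 20.65 CPM in Model and 6.24 to 24.0 CPM in Control. Slc4a1 was at 0 in Control, and no marker of the duct, macrophage, acinar or islet lists was at 0 throughout a group. Their part in the results for the 30 genes was not tested.

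The last comparison, QYD versus Model, addresses whether the decoction changed the pathway in mice that had received caerulein and LPS. None of the 30 genes passed, as none of all 12828 tested genes passed (0%, edgeR quasi-likelihood, Benjamini-Hochberg), with 750 genes at an unadjusted p under 0.05. DESeq2 also called none, and limma-voom called 1 gene, which was not one of the 30. The smallest adjusted p among the 30 was 0.826, in the edgeR fit. The log2 differences had a median of -0.07, with 9 above and 21 below 0, and the median over all tested genes was 0.01. On library totals the median of all tested genes shifted by -0.12.

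The gene nearest to a difference was Pfkl. Its 3 QYD libraries, at 14.0, 12.3 and 13.2 CPM, lay below the 3 Model libraries, at 20.1, 17.3 and 16.0 CPM. The log2 difference was -0.44 ± 0.13 (unadjusted p = 0.00584, adjusted p = 0.826, edgeR quasi-likelihood, Benjamini-Hochberg), and its 95% interval as a ratio, 0.608 to 0.899, was the only one of 30 that did not include 1. The groups did not overlap for Pfkl and Aldoa, which lay lower in QYD, and for Rpe, which lay higher. That is 2 of 30 lower, against 8.17% of all tested genes, and 1 of 30 higher, against 8.56%, so neither share exceeded that over all genes. For Aldoa the ratio was 0.933 (95% interval 0.788 to 1.11), and for Rpe 1.21 (0.972 to 1.51).

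The intervals show what the data could have missed. Over all 30 genes they reached from a log2 difference of -0.86, for Slc2a1, to 1.16, for Hk3. For Slc16a3 the ratio of QYD to Model was 0.895 (0.590 to 1.36), for Slc2a1 0.744 (0.549 to 1.01), for Pfkfb3 0.789 (0.605 to 1.03) and for Hif1a 1.04 (0.755 to 1.44). Among abundant enzymes and the genes of the oxidative arm, Gapdh had 0.933 (0.735 to 1.19), Ldha 0.969 (0.770 to 1.22), Pgls 1.05 (0.870 to 1.26) and Pgd 0.958 (0.791 to 1.16). The within-library ratios between QYD and Model could not pass either, since 3 against 3 libraries allow no exact permutation p under 0.1.

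**Figure D5:**
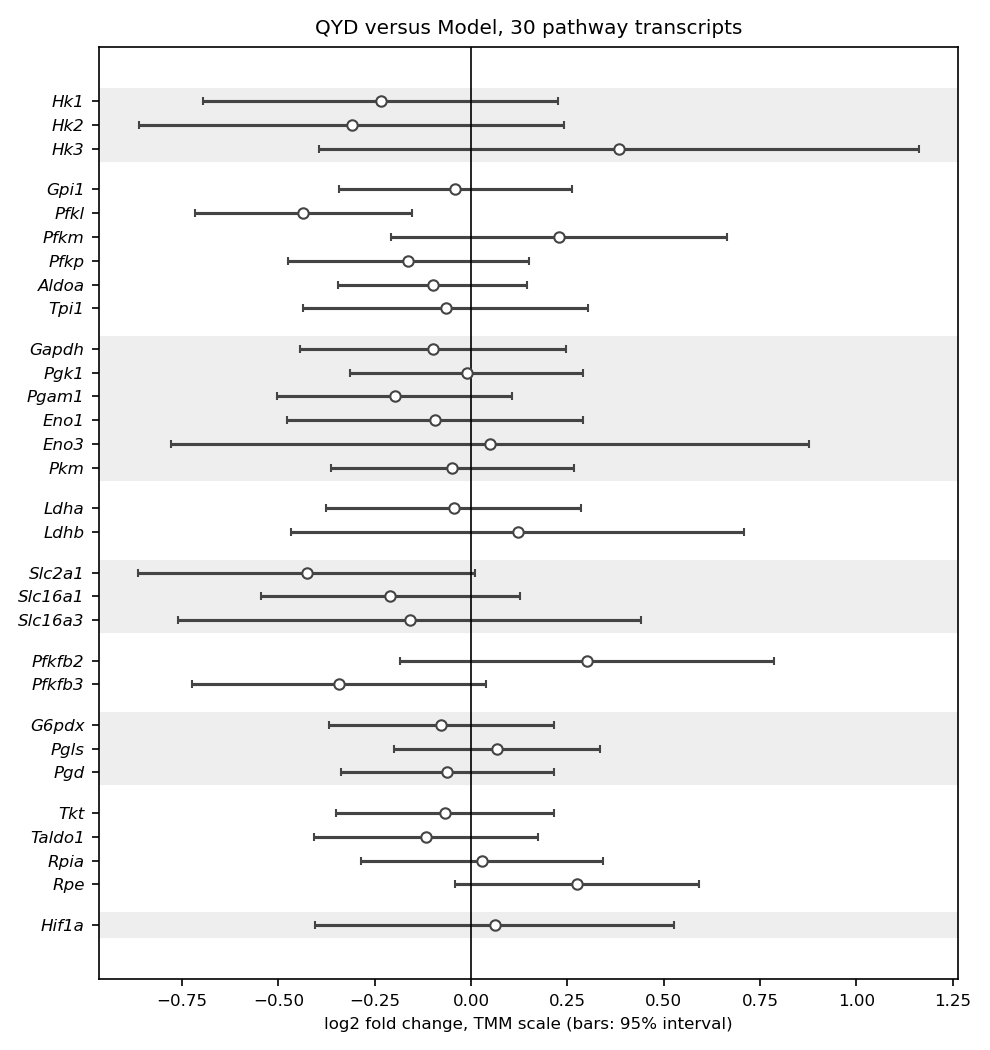
Log2 difference of QYD versus Model on the TMM scale (horizontal axis) for the 30 genes, with 95% intervals from the edgeR fit over 3 mice per group. The interval of Pfkl, around -0.44, was the only one that lay wholly on one side of 0, and none of the 30 passed after adjustment.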

How the data were processed

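Poly(A)-selected RNA of pancreas was sequenced from 9 mice, 3 per group. Tools listed in the submitters' processing notes, with no role given, were RSEM 1.2.12, HISAT2 2.0.4 and Bowtie2 2.2.5, and the build was GRCm38.p6. The sources used here do not give the strandedness. Per the file headers the authors deposited a read count per gene and library, taken here as RSEM's estimated counts because the processing notes name RSEM and some values were not whole. They also deposited FPKM, used for isozyme shares, ranks and alternatives, and TPM, which was not used.

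The rounded estimated counts went into edgeR 4.0.16 (R 4.3.3): default expression filter (4304 genes removed), TMM scaling, 1 quasi-likelihood model by group over all 9 libraries (6 residual degrees of freedom, common biological coefficient of variation 0.175), Benjamini-Hochberg adjustment over 12828 genes and a threshold of 0.05. The standard error is the log2 fold change divided by the square root of F. Ratios added 0.5 to each count. Counting intervals are 95% and cover counting error only. Promoters and the 50-base stretches come from RefSeq and GENCODE tables of GRCm38.p6. The test was checked on simulated counts without the shift in composition seen here, so that check does not cover the scaling. The 30 genes, the pathway lists and the marker lists were chosen with earlier results of these data known. Every member is named, as are up to 4 genes with the smallest p in Model versus Control per neighbouring list, with a mean of at least 1 CPM; 1 of these is not reported here. Alternatives were scaling by RLE, by library totals or by TMM after leaving out the 50 most abundant genes, limma 3.58.1 (voom with sample weights, or log2 of FPKM plus 1 or 0.1), DESeq2 1.42.0, no filter, only the compared groups, and each library left out.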

Additional observations from a re-analysis of the deposited data

How the results depend on the processing

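Between the TMM scale and library totals, the direction turned for 8 of 30 members in Model versus Control and 7 of 30 in QYD versus Control. The members that passed as higher on the TMM scale stayed higher. On library totals, limma on log2(FPKM + 1) and limma on log2(FPKM + 0.1), in that order throughout, Model versus Control had 12184, 10083 and 10086 passing genes, 0, 0 and 0 members lower, and median member log2 fold changes of 2.98, 2.38 and 2.85. QYD versus Control had 12155, 10077 and 10071 passing genes, 30, 30 and 30 members higher, 0, 0 and 0 lower, and medians of 2.76, 2.02 and 2.69. Log2 fold changes that turned positive in Model versus Control were Hk2 (1.62, 0.71, 1.45), Pfkm (1.19, 0.61, 1.06), Eno3 (1.74, 0.72, 1.64), Ldhb (1.39, 0.86, 1.26), Pfkfb2 (2.06, 1.17, 1.96), Pgls (1.22, 1.19, 1.22), Rpia (1.87, 1.31, 1.78) and Rpe (1.90, 1.46, 1.84). In QYD versus Control they were Hk2 (1.202, 0.49, 1.07), Gpi1 (1.99, 1.93, 2.00), Pfkm (1.30, 0.68, 1.16), Eno3 (1.71, 0.73, 1.63), Ldhb (1.41, 0.91, 1.33), Pgls (1.16, 1.14, 1.17) and Rpia (1.77, 1.25, 1.70). The construction of these alternatives leaves the difference in composition uncorrected. With DESeq2, no filter, RLE scaling, or TMM factors computed without the 50 top genes, 21 members were higher and 2 lower in Model versus Control, and limma-voom and the fit of the compared groups alone gave 20 higher and 2 lower. The Hk3 call in Model versus Control was lost with limma-voom (adjusted p = 0.0993) and with only the compared groups (0.0614, edgeR). The QYD call for Slc2a1 was lost with limma-voom (0.0915). Pgam1 passed in QYD versus Control with no low-count filter (adjusted p = 0.048, edgeR) and with limma-voom (0.0432), and Ldhb passed as lower with only the compared groups (0.0412, edgeR). With each library left out in turn, members lower in QYD versus Control numbered 1 to 4, with the lowest count without QYD 68, and ratio pairs passing numbered 0, without any 1 of the Control libraries, to 7. For QYD versus Model, limma-voom, limma on log2(FPKM + 1) and limma on log2(FPKM + 0.1) each called 1 gene. No paired analysis was possible because the groups share no replicate numbers. The 3 libraries per group limit the rarer members most: Slc16a3 and Hk3 had 11 and 18 estimated counts over the Control libraries.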
